A study of Mus musculus with 2 samples.

Results

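The NMDA receptor genes were described across 2 total RNA libraries of mouse hippocampus. They were the 7 genes whose symbols are Grin1, Grin2a, Grin2b, Grin2c, Grin2d, Grin3a and Grin3b, matched exactly in the deposited transcript tables. They are 7 of 55536 annotated genes, with 39 of 141767 transcripts. The tissue is labelled a layer of hippocampus and came from female B6CASTF1/J mice, F1 offspring of C57BL/6 and CAST parents, CAST being a wild-derived strain, at 25 days of age. The libraries, replicates 1 and 2 of a single group, were each made from 300 ng of RNA with reduced ribosomal RNA, kept strand information and carried ERCC spike-ins. The labels give separate biosamples and the same donor entry, and do not say whether the RNA came from separate animals, so the spread between the replicates may be technical. Depth was 34919989 and 41206890 expected counts in replicates 1 and 2, and the 7 genes took 0.328% and 0.276% of them. Because there is 1 group, no p-value is given, and means are given ± SD (n = 2). Whether reads of the CAST allele were lost against the reference was not tested.

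NMDA receptors are glutamate-gated cation channels that pass calcium and need both glutamate and a co-agonist, glycine or D-serine, to open. Each receptor holds obligatory GluN1 subunits, encoded by Grin1, together with GluN2 subunits, encoded by Grin2a to Grin2d, or GluN3 subunits, encoded by Grin3a and Grin3b. In the forebrain GluN2B predominates early in life and GluN2A is added during postnatal development. GluN1 is a single gene whose variety comes from splicing, through a cassette in the extracellular amino-terminal domain, called N1, a cassette in the cytoplasmic tail, called C1, and a choice of last exon, called C2 or C2 prime.

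The splice choices of Grin1 are shown here because all 8 coding forms of the gene differ by them. Sequences are from the GENCODE M21 transcripts, coordinates are on mm10, and all lie on the minus strand of chromosome 2. N1 is chr2:25311343-25311405 (63 bases, 21 codons), C1 is chr2:25294438-25294548 (111 bases, 37 codons), and capitals mark each cassette. The long and the short last exon begin 356 bases apart, hold 114 and 66 coding bases, and are shown by their first 30 bases (chr2:25292455-25292484 and chr2:25292099-25292128), in capitals. Lower case marks the 15 flanking bases.
Grin1 N1 included: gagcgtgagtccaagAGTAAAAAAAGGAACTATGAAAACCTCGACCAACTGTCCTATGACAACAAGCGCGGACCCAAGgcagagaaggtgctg
Grin1 N1 skipped: gagcgtgagtccaaggcagagaaggtgctg
Grin1 C1 included: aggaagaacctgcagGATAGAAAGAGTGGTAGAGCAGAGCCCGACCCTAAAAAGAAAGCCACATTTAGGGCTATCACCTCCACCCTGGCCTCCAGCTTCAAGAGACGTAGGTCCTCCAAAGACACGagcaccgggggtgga
Grin1 C1 skipped, long last exon (C2): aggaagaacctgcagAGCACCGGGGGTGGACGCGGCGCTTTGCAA
Grin1 C1 skipped, short last exon (C2 prime): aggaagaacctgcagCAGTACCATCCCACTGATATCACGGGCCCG

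The length of a read was taken as 100 bases, the value implied by the deposited effective lengths of the spike-ins. The subunit genes are paralogs, and no run of that length was shared between any of the 7. The longest exact run between coding sequences was 34 bases, between Grin2b and Grin2c, and coding identity was 65.5% for Grin2a with Grin2b and 65.7% for Grin2c with Grin2d. Of the 100-base words of Grin2a, 1926 of 18022 (10.7%) also occur in Gm7328, a processed pseudogene on chromosome 8 with 83.8 and 88.5 expected counts, beside 37952 and 38348 for Grin2a. No other member shared such a word with another gene.

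Grin1, Grin2a and Grin2b made up most of the NMDA receptor RNA in this tissue. Per length, Grin1, the obligatory subunit (ENSMUSG00000026959.13, chr2:25291181-25319187), was highest, at 203.75 and 164.5 TPM in replicates 1 and 2 (184 ± 27.8, n = 2). Grin2a (ENSMUSG00000059003.12, chr16:9567898-9995560) was at 164.61 and 123.42 TPM (144 ± 29.1, n = 2). Grin2b (ENSMUSG00000030209.14, chr6:135713233-136173511) was at 161.28 and 110.44 TPM (136 ± 35.9, n = 2). Within each library the order was Grin1, Grin2a, Grin2b, but the ranges of neighbours overlap. The 40.1 TPM between the means of Grin1 and Grin2a is above the SD of either, whereas the 8.16 TPM between the means of Grin2a and Grin2b is under the SD of either. In bulk tissue, fewer cells of a type and less RNA per cell cannot be told apart.

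The other GluN2 and GluN3 genes lay far lower, with no overlap of ranges from Grin2b downward. Grin2c (ENSMUSG00000020734.13, chr11:115249169-115267243), known as the GluN2 subunit of cerebellar granule cells and of astrocytes, was at 21.88 and 19.24 TPM (20.6 ± 1.87, n = 2). Markers of cerebellar granule cells were near 0, with a summed level of 0.23 and 0.55 TPM over 4 genes. The 6 astrocyte markers summed to 1330 and 1240 TPM, of which 839 and 744 came from Slc1a2. Which cells hold the Grin2c RNA was not tested. Grin3a (ENSMUSG00000039579.15, chr4:49661611-49845744), which encodes a glycine-binding subunit that lowers calcium passage, was at 14.42 and 15.06 TPM (14.7 ± 0.453, n = 2). Grin2d (ENSMUSG00000002771.12, chr7:45831883-45878378), a subunit known from interneurons, was at 5.56 and 4.56 TPM (5.06 ± 0.707, n = 2), from 639 and 698 counts. Grin3b (ENSMUSG00000035745.9, chr10:79970715-79977190), the subunit known from motor neurons, was at 0.12 and 0.06 TPM from 5 and 3 counts, and no ratio is given for it. Of the 10 listed markers of hippocampal neurons, each was at 30.7 TPM or more in both libraries, among them Prox1, known from dentate granule cells, at 45.9 and 37.9 TPM, and Wfs1, known from CA1 pyramidal cells, at 89.6 and 78.0. They summed to 1208 and 1153 TPM, of which 648 and 630 came from Slc17a7, a marker of excitatory neurons in other regions too. Thalamic markers, 5 genes, summed to 46.8 and 33.9 TPM.

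**Figure D1:**
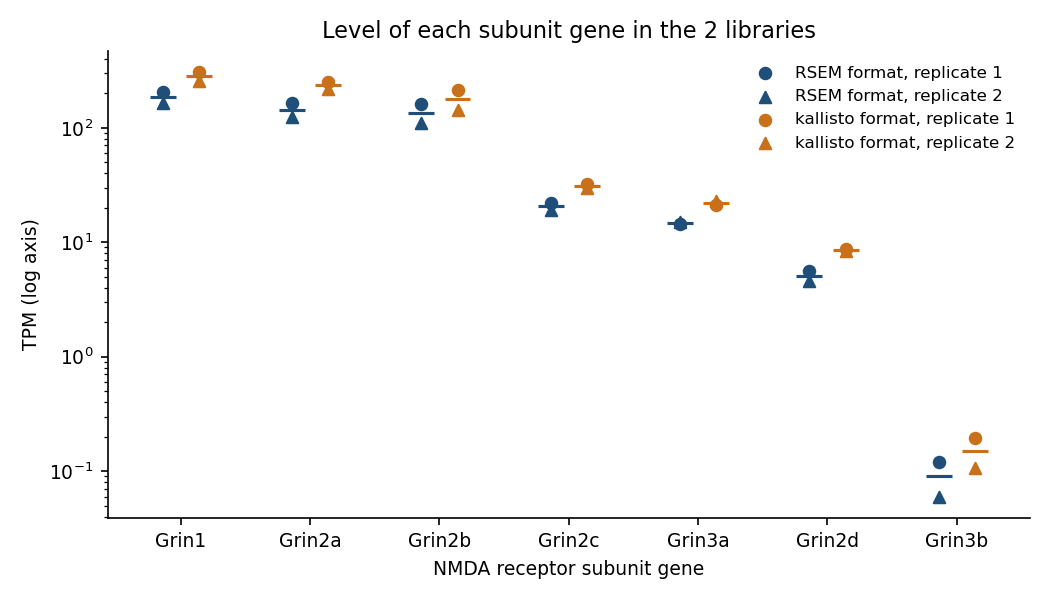
TPM of each gene (log axis) in replicate 1 (circles) and replicate 2 (triangles), from the RSEM-format and the kallisto-format tables, with lines at the means. Grin1, Grin2a and Grin2b sit above 100 TPM in every library and both quantifications, and Grin3b sits at 0.06 to 0.196.

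As a share of the 7 genes, Grin1 held 35.6% and 37.6% of the members' summed TPM (36.6 ± 1.40%, n = 2), beside 28.5% for Grin2a, 26.7% for Grin2b, 4.11% for Grin2c, 2.98% for Grin3a and 1.01% for Grin2d. The GluN2 genes together had 1.73 and 1.57 times the TPM of Grin1. Grin2a and Grin2b made up 91.5 ± 1.04% of GluN2 TPM (n = 2), Grin2c 6.83% and Grin2d 1.67%. The Grin2a to Grin2b ratio was 1.02 and 1.12 (1.07 ± 0.0685, n = 2). It was 1.18 and 1.54 in the kallisto-format table, a separate deposited quantification made from the reads. Over complete coding transcripts only, an alternative chosen after seeing the data, it was 1.09 and 1.18. The Grin2b transcripts counted there include Grin2b-205, whose coding sequence is 1011 bases against 4446 for Grin2b-201. The ratio without it was not computed.

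The scale decides the order of the 3 main genes. By expected counts, which are not divided by length, Grin2b led with 44.9% of the members' counts, Grin2a had 33.4% and Grin1 16.6%, and the Grin2a to Grin2b ratio was 0.719 and 0.771, below 1 in both libraries. The difference in effective length is large: the deposited effective length of Grin1 was 3789 and 3910 bases, that of Grin2b 13605 and 14988.

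**Figure D2:**
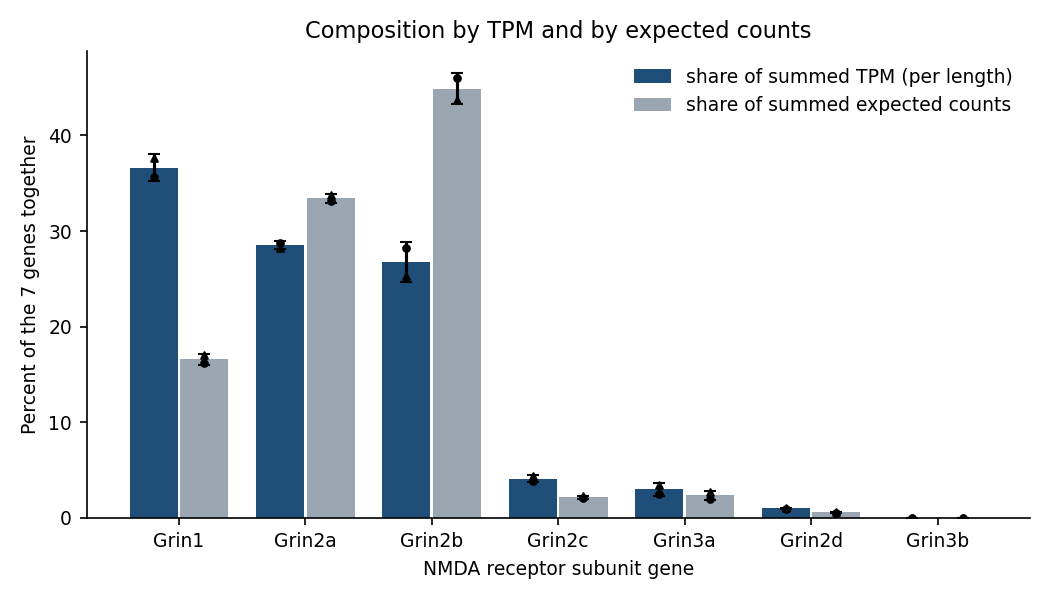
Percent of the 7 genes' total held by each gene, by TPM and by expected counts; bars are means of 2 libraries, error bars are SD and points are the libraries. Grin1 leads by TPM at 36.6% and Grin2b leads by counts at 44.9%.

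Set beside the other ionotropic glutamate receptors, the 7 genes summed to 572 and 437 TPM. The 4 AMPA receptor genes summed to 661 and 587 TPM and the 5 kainate receptor genes to 192 and 163. NMDA to AMPA RNA was thus 0.865 and 0.745, and NMDA to kainate RNA 2.97 and 2.67.

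The 8 annotated coding forms of Grin1 are all the combinations of N1, C1 and the last exon. Most Grin1 RNA lacked N1. Transcripts with N1 held 12.7% and 14.4% of the coding TPM of the gene (13.5 ± 1.24%, n = 2), and 15.1% and 16.1% in the kallisto-format table. N1 is known to alter the sensitivity of the channel to protons, zinc and polyamines. C1, which carries an endoplasmic reticulum retention signal and phosphorylation sites, was in 56.5% and 56.1% (56.3 ± 0.316%, n = 2), against 51.6 ± 0.147% in the kallisto-format table. The short last exon, whose C2 prime tail is known to favour delivery to the surface, was in 37.4% and 37.8% (37.6 ± 0.326%, n = 2), against 43.3% in the kallisto-format table. The last exon is not a cassette under the definition used, and was added after the annotation was read.

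Skipping of C1 and use of the short last exon went together in the estimates. Among transcripts without C1, 56.6% and 62.0% used the short last exon, and among those with C1, 22.6% and 18.9%. In the kallisto-format table the pairs were 69.0% and 71.8% against 19.3% and 16.7%. The difference exceeded the spread of the libraries in both tables. C1 lies directly before the last exon, so a read can cover both choices. N1 and C1 are 2019 bases apart in Grin1-204, so no read of 100 bases spans both, and the pairing of N1 with a tail rests on the models of the quantification.

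The leading forms differed in both tail choices. Grin1-201 (no N1, C1, C2) held 43.5% and 40.2% of coding TPM, and Grin1-205 (no N1, no C1, C2 prime) 24.6% and 27.2%. In the kallisto-format table their order was reversed, at 32.1% in both libraries against 33.3% and 34.8%. Grin1-202 (no N1, no C1, C2) held 10.4%, Grin1-206 (no N1, C1, C2 prime) 8.24%, and Grin1-203 (N1, no C1, C2) 7.34%. Grin1-208 (N1, C1, C2 prime) held 4.73% and 2.14%. Grin1-204, the form with N1, C1 and C2, was at 0.280% and 5.25%, but at 9.65% and 10.8% in the kallisto-format table, so the N1 forms depend on the quantification more than N1 itself does.

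Grin1-207 (N1, no C1, C2 prime) was listed at 0 in both libraries and both tables. A floor of 3 counts would allow 0.0172% and 0.0160% of the gene's coding counts, for counting error only; the deposited credibility bounds, whose level is not stated, reach 3.74 and 4.68 TPM. The deposited TPM of Grin1-201 in replicate 1, 79.22, lies above its own bounds of 56.3 to 76.3, and that of Grin1-204, 0.51, below its bounds of 1.43 to 17.6. The forms also differ in annotated first exons, so these shares are not a measure of splicing alone.

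**Figure D3:**
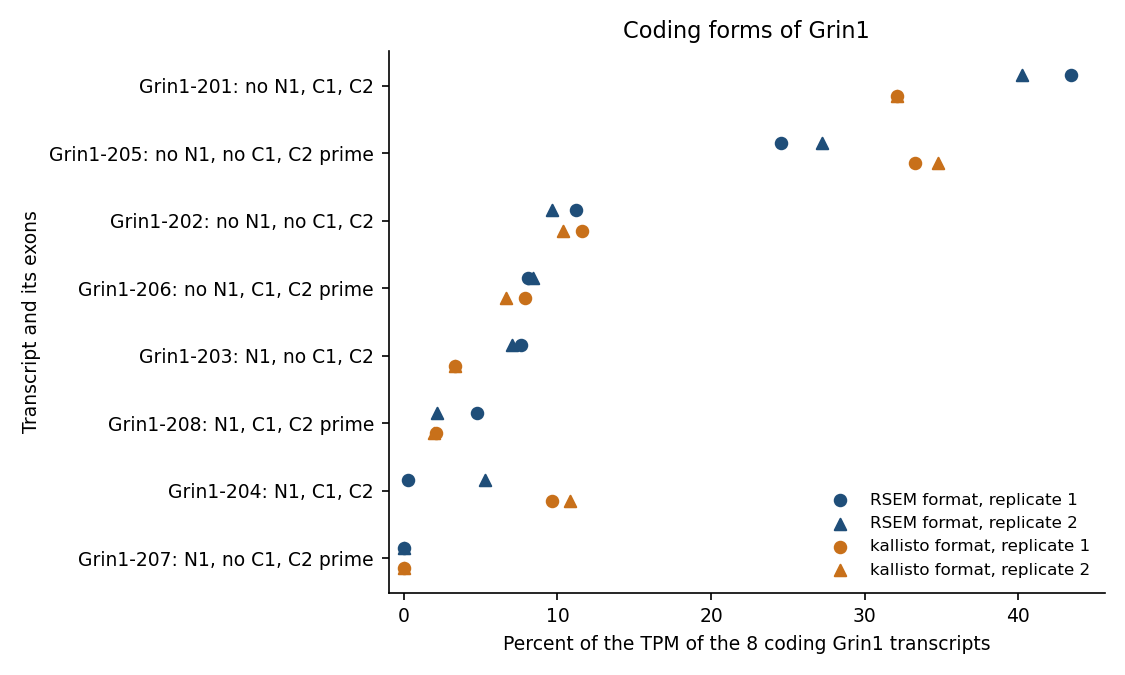
Percent of the coding TPM of Grin1 held by each of its 8 coding forms in replicate 1 (circles) and replicate 2 (triangles), in both quantifications. Grin1-201 and Grin1-205 stand apart from the rest in every series of points, and Grin1-207 is at 0 throughout.

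Part of each main gene's TPM came from models that encode no complete subunit. For Grin1 the non-coding transcripts held 21.49 and 7.79 TPM, which is 10.5% and 4.74% of the gene. Of its 6 non-coding models 4 contain sequence outside the exons of coding forms (29.3% to 77.8% of their bases), and the TPM of all 4 was lower in replicate 2, at ratios of 0.238 to 0.452. In the kallisto-format table these ratios were 0.308 to 0.479. The lowest RSEM-format ratios rest on few counts: Grin1-212 had 31.95 and 9.54, and Grin1-213 had 85.77 and 26.25. Both are under the 200 counts over both libraries required of genes for a ratio. The coding transcripts of Grin1 had a ratio of 0.860 in the RSEM-format table and 0.885 in the kallisto-format table.

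For Grin2a the non-coding share was 22.8% and 13.4%, led by Grin2a-204, a retained intron model at 18.82 and 14.35 TPM. Grin2a-203, also a retained intron, was at 12.38 and 2.22 TPM and is listed at 0 in the kallisto-format table. Grin2a-205 was at 6.35 and 0.02 TPM, and at 27.7 and 34.6 in the kallisto-format table, so its level is uncertain. For Grin2b, 3 short incomplete models of 601 to 703 bases held 25.9% and 16.7% of TPM but 1.03% and 0.607% of counts. Grin2b-206 was at 22.92 and 8.53 TPM and Grin2b-204 at 15.39 and 6.52. By kallisto-format TPM Grin2b-206 was at 35.3 and 1.30 and Grin2b-204 at 1.78 and 11.3, so the order of these models is uncertain. Grin3a-203 held 17.6 ± 1.30% of Grin3a TPM.

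Over complete coding transcripts alone, Grin1 was at 182 and 157 TPM, Grin2a at 127 and 107, Grin2b at 117 and 90.7, Grin2c at 21.9 and 19.2, Grin3a at 11.7 and 12.5 and Grin2d at 4.92 and 4.40. Their order of levels was that of the whole genes. The Grin2b values include Grin2b-205 (10.23 and 7.57 TPM), whose coding sequence is 1011 bases, against 4446 for Grin2b-201.

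**Figure D4:**
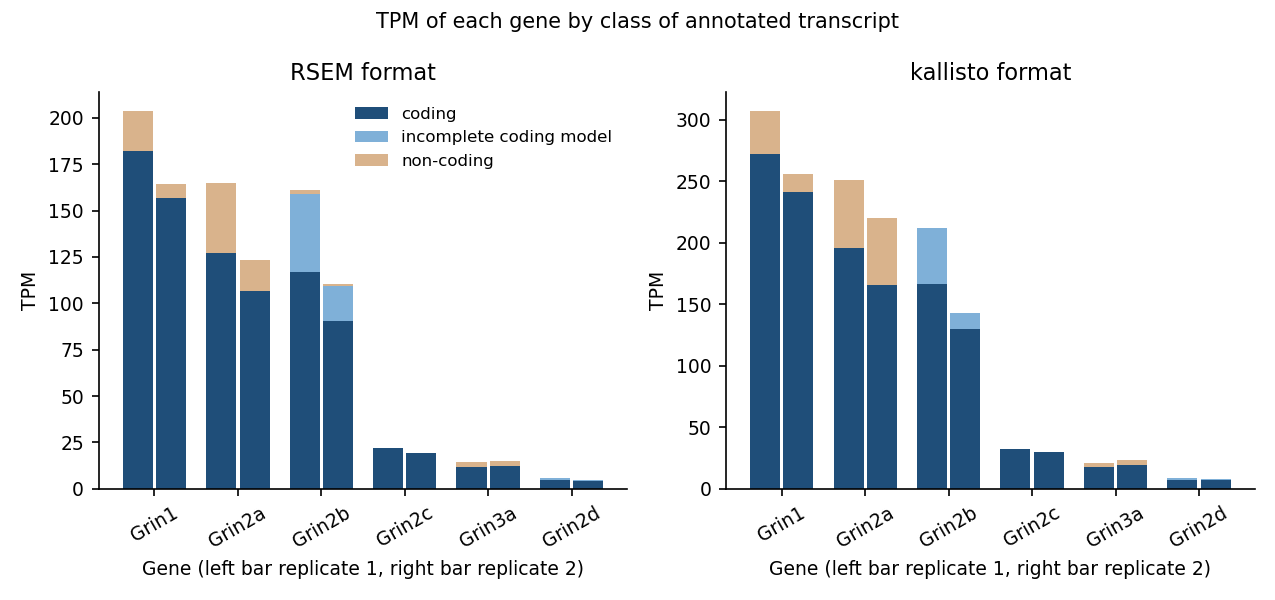
TPM of each gene in replicate 1 (left bar) and replicate 2 (right bar), stacked by class of annotated transcript, in both quantifications. In the RSEM-format panel the coding part of Grin2b is 117 and 90.7 TPM, and incomplete models add 41.7 and 18.5.

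Transcripts with the longest 3′ untranslated sequence carried most counts of Grin2a and Grin2b. Grin2a-206, with 14634 bases of which 9929 are 3′ untranslated, held 56.6% of the TPM and 82.5% of the counts of Grin2a. Grin2a-202, with the same coding length of 4392 bases and 86 bases of 3′ untranslated sequence, held 25.3% of TPM. Grin2b-201, with 24060 bases of which 18865 are 3′ untranslated, held 53.1% of TPM and 89.0% of counts. By kallisto-format TPM Grin2a-206 held 49.6% and Grin2b-201 64.5%. Grin2b-202, with a coding length of 4446 bases too, held 17.7% of TPM, and Grin2b-205, whose coding sequence is 1011 bases, 6.61%. Grin2b-205 held 2.38% by kallisto-format TPM and 1.09% of counts.

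The smaller genes had pairs of coding forms. Grin3a-202 extends the last exon by 60 bases (20 codons) at its start, and held 27.7% and 28.2% of coding TPM (28.0 ± 0.296%, n = 2), beside 26.4% in the kallisto-format table. The extension is chr4:49665566-49665625, on the minus strand, and is shown in capitals because it is the only coding difference between the forms.
Grin3a-202 with the extension: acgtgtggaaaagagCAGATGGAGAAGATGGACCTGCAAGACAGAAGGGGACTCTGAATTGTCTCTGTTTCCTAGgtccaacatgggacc
Grin3a-201 without it: acgtgtggaaaagaggtccaacatgggacc

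Grin2c-201 and Grin2c-202 share a coding length of 3717 bases and differ in their first exons. Grin2c-202 held 45.7% and 38.1% of TPM, and 59.3% and 46.8% in the kallisto-format table, where it led in replicate 1. Of the coding TPM of Grin2d, Grin2d-203 held 29.0% and 41.8%, from 177 and 284 counts, and Grin2d-201 the rest. Grin2d-202 is an incomplete model at 0.64 and 0.16 TPM. The 3 models of Grin3b rest on 8 counts and are not compared.

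Of 12 genes annotated across the members, 9 had at most 13 counts in either library. Grin1os, antisense to Grin1, had 0 and 2 counts, and the 4 on the strand opposite to Grin2b together 11 and 13. Kdelr1, opposite to Grin2d, had 980 and 1264 counts, Gm45441, antisense to Grin2d, 140 and 198, and Tmem259, opposite to Grin3b, 2620 and 3031. Whether counting used strand is not given in the sources used here, so the levels of Grin2d and Grin3b are uncertain where these genes overlap them.

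Partner genes of the receptor were listed by role. The co-agonist enzyme genes Srr, which makes D-serine, and Phgdh, which starts serine synthesis, were at 43.6 and 43.8 TPM and at 31.8 and 32.3 TPM, while Dao, which degrades D-serine, had 1 and 2 counts. Of the scaffolds, Dlg4, which encodes PSD-95, was at 380 and 348 TPM and Dlg2 at 117 and 107. Of transport genes, Lin7b was at 63.8 ± 0.969 TPM and Apba1 at 48.1 ± 2.93. Neto1, an auxiliary subunit, was at 72.8 and 67.6 TPM, and Ephb2, a receptor kinase at synapses, at 10.9 ± 1.59 TPM. Camk2a, the calcium-dependent kinase of the synapse, was at 1577 and 1349 TPM, and Ppp3ca, a catalytic subunit of calcineurin, at 557 and 508. Rasgrf1, a Ras exchange factor, was at 179 and 165 TPM. Rest, a repressor of neuronal genes, was at 1.93 and 1.79 TPM.

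The 2 libraries were then set against each other, 1 against 1 and without a replicate check, over genes that had 200 or more expected counts in sum. A gene was called lower when its TPM in replicate 2 was at most 0.8 of that in replicate 1, and higher at the reciprocal of that ratio. Of the 7 members 6 had the counts. Grin2a and Grin2b were called lower, 2 of 6 members, where 13.1% of 12962 genes and 11.3% of nuclear protein-coding genes were. Grin2b had a ratio of 0.685 (95% Clopper-Pearson counting interval 0.676 to 0.693) and Grin2a 0.750 (0.739 to 0.761). Grin1 was at 0.807 (0.791 to 0.824), Grin2d at 0.820 (0.736 to 0.914) and Grin2c at 0.879 (0.831 to 0.930). Grin3a was at 1.04 (0.989 to 1.10), and no member was called higher, beside 2.38% of all genes. Intervals cover counting error only. Over complete coding transcripts alone Grin2b was at 0.775 and Grin2a at 0.841, above the 0.8 required for a call. The share of all genes called was not computed that way. With 6 members, these counts are a description.

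Scaling and unit changed the calls. TMM, DESeq2 and spike-in scaling were applied to counts, which unlike TPM are not divided by length. The deposited effective length was 13605 and 14988 bases for Grin2b in replicates 1 and 2, and 9584 and 10343 for Grin2a. How much of each change came from the unit and how much from the scaling was not tested. The median log2 ratio of all genes was -0.07 on TPM, -0.02 when TPM was rescaled over nuclear protein-coding genes, -0.04 in the kallisto-format table, 0.02 with TMM and -0.17 with spike-ins. With TMM-scaled counts no member was called lower (5.78% of genes were), and Grin2b was at 0.802. In the kallisto-format table Grin2b alone was, at 0.673 (14.7% of genes), and with spike-in scaling Grin1, Grin2a and Grin2b were (20% of genes). Grin3a lay above 1 on all of these except spike-in scaling, where it was at 0.980. Relative to the median of all genes, Grin2b was lowest of the members on each of these scalings, under that median by 0.34 to 0.53 on the log2 scale. Grin3a was above the median by 0.13 to 0.16.

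**Figure D5:**
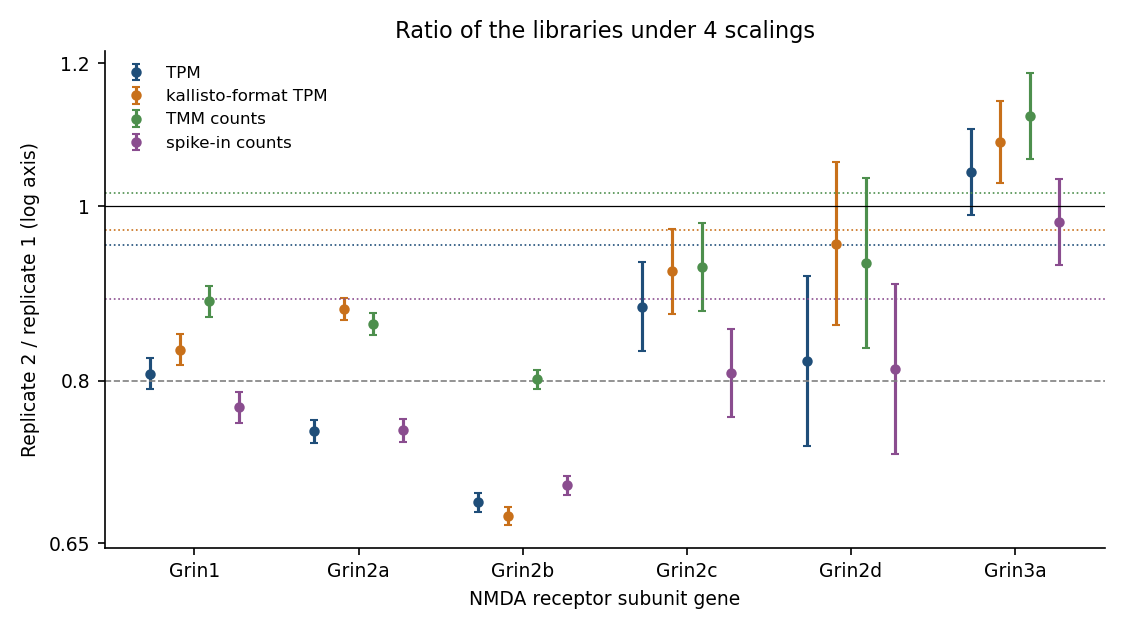
Ratio of replicate 2 to replicate 1 (log axis) for the 6 members with enough counts, under 4 scalings, with 95% counting intervals; dotted lines are the median of all genes on each scaling and the dashed line is a ratio of 0.8. Grin2b lies lowest on each scaling, and Grin3a lies above 1 on all but spike-in scaling.

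In the RSEM-format table the coding transcripts of Grin2a and Grin2b differed less between the libraries than the summed other models did. Their TPM ratio was 0.775 for Grin2b and 0.841 for Grin2a, beside 0.446 and 0.442 for the other models of the same genes. Of those of Grin2a, Grin2a-204, with 1723 and 1641 counts, was at 0.762. Grin2a-203 and Grin2a-205, whose levels differ between the quantifications, were at 0.179 and 0.00315. The incomplete models of Grin2b held 1.03% and 0.607% of its counts. In the kallisto-format table the coding transcripts of Grin2a were at 0.845 and the other models at 0.989. Those of Grin2b were at 0.779 and its other models at 0.288, so of Grin2a and Grin2b only Grin2b kept this order there. Its other models did not move together: Grin2b-206 was at 35.3 and 1.30 TPM there, and Grin2b-204 at 1.78 and 11.3. For Grin1 the coding transcripts were at 0.860 and the other models at 0.362. In the kallisto-format table they were at 0.885 and 0.416. Of the 31 partner genes 30 had the counts, 26 of them with a ratio below 1. Their median log2 ratio was -0.11, beside -0.07 for all genes, most of which therefore had a ratio below 1 too. Of the partners 1 was called lower and none higher, beside 13.1% and 2.38% of all genes. Of 8 nuclear noncoding RNAs, which include Malat1 (5613 and 3254 TPM), 6 were called lower, with a median log2 ratio of -0.68. Of 5 thalamic markers 4 had the counts and 3 were called lower, and none was at 0. Of 7 interneuron markers 1 was called higher, Vip (5.75 and 7.61 TPM), and the list summed to 404 and 432 TPM. Of the 10 hippocampal neuron markers 7 had a ratio below 1 and 1 was called lower, Neurod6 (90.7 and 71.1 TPM), with a median log2 ratio of -0.15. The part of these lists in the ratios of the members was not tested.

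Likeness of a member's pattern to that of other genes was not measured, because 2 libraries of 1 group give no pattern.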

How the data were processed

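Total RNA libraries of hippocampus were analysed from tables the authors deposited with mm10 and the GENCODE M21 annotation, per the deposited notes. Which aligner was used is not given in the sources used here. A gene and a transcript table per library, of RSEM format, hold the authors' deposited expected counts and TPM, and the transcript table also a percent, which is the part of the gene's TPM in each transcript. A further deposited transcript table of kallisto format holds estimated counts and TPM. The transcript credibility bounds are the authors' deposited TPM bounds, with no level given. TPM is relative to all RNA of the library, so it moves when other RNA changes.

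The members, the partner, nuclear RNA and marker lists, and the comparisons were chosen with earlier results of these data known. All members, and transcripts with at least 5% of their gene's TPM in either library of either quantification, were named (27 of 39), with the remaining Grin1 coding forms; the intron-bearing Grin1 models were chosen after their values were seen. Of each partner role the 2 highest were named, with any whose ratio of libraries passed the call below; Dao and the single markers were named after their values were seen. Some items that these rules name are not reported here. Shares used TPM, and cassette exons were those lying whole inside an intron of another transcript. Complete coding models excluded those with a missing start or end. This rule kept Grin2b-205, whose coding sequence is 1011 bases.

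Ratios of the libraries used expected counts of at least 200 over both, a floor of 3 counts and 95% Clopper-Pearson limits (exact) of the count share, turned into limits of the ratio. edgeR 4.0.16 gave TMM factors and DESeq2 1.42.0 size factors on counts rounded to whole numbers; the ratio of replicate 2 to 1 was 1.18 for each, and 1.35 for the 96 spike-ins. Tables were handled in Python 3.11.15 with numpy 2.4.6, pandas 2.3.3, scipy 1.17.1 and biopython 1.88, figures with matplotlib 3.10.9, and scaling in R 4.3.3. With 1 group of 2 libraries no test between groups exists. Protein sequences were not used here.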

Additional observations from a re-analysis of the deposited data

How the results depend on the processing

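Level depends on the denominator. The members' summed TPM of 504 became 756 in the kallisto-format table and 1180 when TPM was rescaled over nuclear protein-coding genes, and ranged from 437 to 572 over the replicates left out in turn. The share held by Grin1, 36.6%, became 16.6% of expected counts and 39.7% over complete coding transcripts, and 35.6 to 37.6% with a replicate left out. The Grin2a to Grin2b ratio of 1.07 became 1.36 in the kallisto-format table and 0.745, on the other side of 1, by expected counts; it was 1.02 to 1.12 with a replicate left out. The count of members called lower at a ratio of 0.8, 2 of 6 (13.1% of all genes), became 1 in the kallisto-format table (14.7% of genes). It was 0 with counts scaled by TMM or DESeq2 (5.78% of genes for each), a change of unit as well as of scaling. It was 0 at 1.5-fold (3.33%) and 0 at 2-fold (0.725%). It was 3 with counts scaled by spike-ins (Grin1 added, 20% of genes). With no minimum count it was 3 of 7 (Grin3b added, from 5 and 3 counts), where 28.9% of 22977 genes were called. The share of coding Grin1 TPM with N1, 13.5%, became 15.6% in the kallisto-format table; that with C1, 56.3%, became 51.6% there and 57.6% by counts; that with the short last exon, 37.6%, became 43.3% and 35.5%. With a replicate left out these were 12.7 to 14.4%, 56.1 to 56.5% and 37.4 to 37.8%. The cause of each shift between quantifications was not tested. The complete-coding and last-exon alternatives were chosen after seeing the data. Of 17 values for single genes or transcripts, 14 moved by more than 1 SD in the kallisto-format table, and 17 stayed within it with a replicate left out, which with 2 libraries they must. Depth limits Grin3b and, less so, Grin2d. No paired analysis was possible because there is 1 group.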
